A study of Mus musculus with 8 samples.

Results

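The fibroblast growth factor (FGF) family was followed through 10 genes in mouse pluripotent stem cells and mesoderm progenitors. They are 7 ligands, Fgf3, Fgf4, Fgf5, Fgf8, Fgf10, Fgf15 and Fgf17, and 3 receptors, Fgfr1, Fgfr2 and Fgfr3. The genes were picked by symbol out of the 37620 genes in the deposited counts, with earlier results of these data known. Each symbol was looked up in the GENCODE annotation of the mouse build NCBIM37. All 10 were found, and all 10 were among the 16961 genes that had at least 10 counts in at least 2 libraries.

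RNA-seq had been made from 8 libraries. R1, a mouse embryonic stem cell (mESC) line, gave 7 of them, and the remaining one was made from GFP-positive cells sorted from a CDX2-GFP line, which reports Cdx2 with green fluorescent protein. The 5 unsorted mESC libraries were grown without feeders, in serum. All of them received the pair called 2i, in which CHIR99021 blocks the kinase GSK3 and PD0325901 blocks MEK. A 2i library was collected on day 5. A 2iJ library, also from day 5, had a JAK inhibitor as well. In 2iJ+B-A, BMP4 and ALK5 inhibitor II were added to 2iJ, and libraries were collected on days 2, 5 and 11. The sorted cells had 2iJ+B-A for 2 days. The mesoderm progenitors came from embryoid bodies, cell aggregates, given BMP4, Activin A and Wnt3a in a medium for which no MEK inhibitor and no serum is listed. They were collected on day 3, or on day 4 after treatment with IWP-2, an inhibitor of Wnt secretion, so that day and IWP-2 cannot be told apart. Nothing in the labels says whether the days of a condition came from separate cultures. The series design text speaks of a shorter culture than the days given for single libraries, and the days of the libraries are used here.

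FGF ligands are secreted proteins that bind receptor tyrosine kinases together with heparan sulfate, and the receptors pass the signal through RAS, MEK and ERK. In the early mouse embryo, Fgf4 comes from the epiblast, the source of embryonic stem cells, and acts on Fgfr1 and Fgfr2 in neighbouring cells of the primitive endoderm and trophectoderm. At gastrulation Fgf8 and Fgf4 are made in the primitive streak, where Fgfr1 is needed for mesoderm cells to move away from it, and Fgf5 marks the epiblast after implantation. Since PD0325901 acts on MEK, below the receptors, it does not block the ligands and receptors themselves.

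All 10 members are protein-coding genes. Fgf3 (ENSMUSG00000031074, chr7:152023988-152030341), Fgf4 (ENSMUSG00000050917, chr7:152047291-152051148) and Fgf15 (ENSMUSG00000031073, chr7:152082437-152086858) follow each other on the plus strand of chromosome 7 within 62.9 kb. The other ligands are spread over the genome, Fgf5 (ENSMUSG00000029337) at chr5:98683203-98706049, Fgf8 (ENSMUSG00000025219) at chr19:45811288-45817405, Fgf10 (ENSMUSG00000021732) at chr13:119458598-119580922 and Fgf17 (ENSMUSG00000022101) at chr14:71036012-71042075. Fgfr1 (ENSMUSG00000031565) lies at chr8:26624126-26686186, and Fgfr3 (ENSMUSG00000054252) at chr5:34064373-34079716. Another identifier named Fgfr1, ENSMUSG00000091895, lies inside the first, had 0 counts in all 8 libraries, and was not used. Fgfr2 (ENSMUSG00000030849) is annotated at chr7:137305965-140315033, a span that overlaps 41 other genes, and read pairs that fit more than 1 gene were not counted. The proteins translated from the annotated transcripts ranged from 202 residues for Fgf4 to 268 for Fgf8 among the ligands. Fgf8 and Fgf17 were the ligands most alike, with 63.3% identical residues over the aligned positions, and the other 20 ligand pairs shared 22.4% to 46.8%. The receptors shared 62% to 73.9%, with Fgfr1 and Fgfr2 the closest pair.

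RefSeq start sites were at hand for 6 of the 10 members, Fgf3, Fgf4, Fgf5, Fgf10, Fgfr2 and Fgfr3. The 250 bases before the start are shown for Fgf4, Fgf5 and Fgfr3, because their RefSeq start is also the start of the gene annotated in NCBIM37, and because these 3 genes had their highest level in 3 different libraries, as described further on. The sequences are those of RefSeq on GRCm38.p6, each was found once in NCBIM37, and the coordinates are on that build. All are on the plus strand, and capitals mark letters that match a motif searched on both strands.
Fgf4, chr7:152047041-152047290: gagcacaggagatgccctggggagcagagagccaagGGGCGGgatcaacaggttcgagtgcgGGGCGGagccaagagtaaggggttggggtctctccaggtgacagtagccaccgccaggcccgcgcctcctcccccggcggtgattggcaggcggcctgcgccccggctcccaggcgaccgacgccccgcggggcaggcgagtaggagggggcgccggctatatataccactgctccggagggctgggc
Fgf5, chr5:98682953-98683202: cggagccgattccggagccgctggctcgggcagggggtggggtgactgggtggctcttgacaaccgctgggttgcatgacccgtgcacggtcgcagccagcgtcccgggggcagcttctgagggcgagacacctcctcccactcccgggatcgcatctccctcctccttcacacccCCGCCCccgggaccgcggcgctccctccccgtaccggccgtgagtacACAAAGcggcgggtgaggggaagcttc
Fgfr3, chr5:34064123-34064372: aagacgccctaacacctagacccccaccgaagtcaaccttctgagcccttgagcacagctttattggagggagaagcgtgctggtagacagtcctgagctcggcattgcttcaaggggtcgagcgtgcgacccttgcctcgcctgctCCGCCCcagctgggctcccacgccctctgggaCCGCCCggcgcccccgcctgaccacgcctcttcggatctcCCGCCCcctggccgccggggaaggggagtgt

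The capitals in Fgf4 are 2 copies of the GC box, GGGCGG, and those in Fgfr3 are 3 copies of its reverse complement. Fgf5 had 1 GC box and 1 copy of the SOX motif ACAAAG, which ended 22 bases before the start. A GC box was found in 32.74% of the 32851 upstream windows of this length in the RefSeq table, and ACAAAG in 16.46%. The other motifs searched were the T-box motif TCACACCT (1.12% of windows), the TCF/LEF motif ATCAAAG (3.21%), the SOX motif ACAATG (10.69%), the ETS motif CCGGAAG (6.91%) and the TATA box TATAAA (12.37%). None of these exact strings of letters was in the 7 windows of the 6 members. Variants were not searched, so a stretch such as tatatata near the end of the Fgf4 window is not marked. GC content was 71.2% in the Fgf4 window, 70.8% in that of Fgf5 and 66.8% in that of Fgfr3, against a median of 52.4% over all windows, while the Fgfr2 window had 44.0%.

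The libraries held between 19810855 (sorted cells) and 31453888 counts on genes. Levels are given in CPM, the count of a gene after the gene counts of each library were scaled to the same total, and a gene with 0 counts could be at up to 0.0954 to 0.151 CPM, which is 3 counts. In the sorted library 29.7% of read pairs were unmapped, against 2.17% to 3.85% in the others, and 4 fibroblast markers summed to 87.5 CPM, against 6.54 to 15.3 CPM. Of 8 primitive streak and mesoderm markers, 8 and 7 reached 1 CPM in the mesoderm progenitors on days 3 and 4, with sums of 1586 and 583 CPM. The sums were 11.5 to 59.0 CPM elsewhere. Cdx2 stood at 234.5 CPM in the sorted cells and at 15.0 to 30.1 CPM in 2iJ+B-A. In the mesoderm progenitors it was at 40.2 and 17.2 CPM. Elf5, another trophectoderm marker, stayed under 1 CPM in all 8 libraries. Summed over 7 trophectoderm markers, the level was 3849 CPM in the sorted cells, of which Krt8 made 1731 and Krt18 1595 CPM. This sum was 544.5 to 1295 CPM in 2iJ+B-A, and 629.1 and 858.5 CPM in the mesoderm progenitors. Of the sum on mesoderm day 4, Hand1 alone made 540.0 CPM, against 8.98 to 99.5 CPM of Hand1 in 2iJ+B-A. In bulk RNA, fewer cells of a type and less RNA per cell cannot be told apart.

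**Figure D1:**
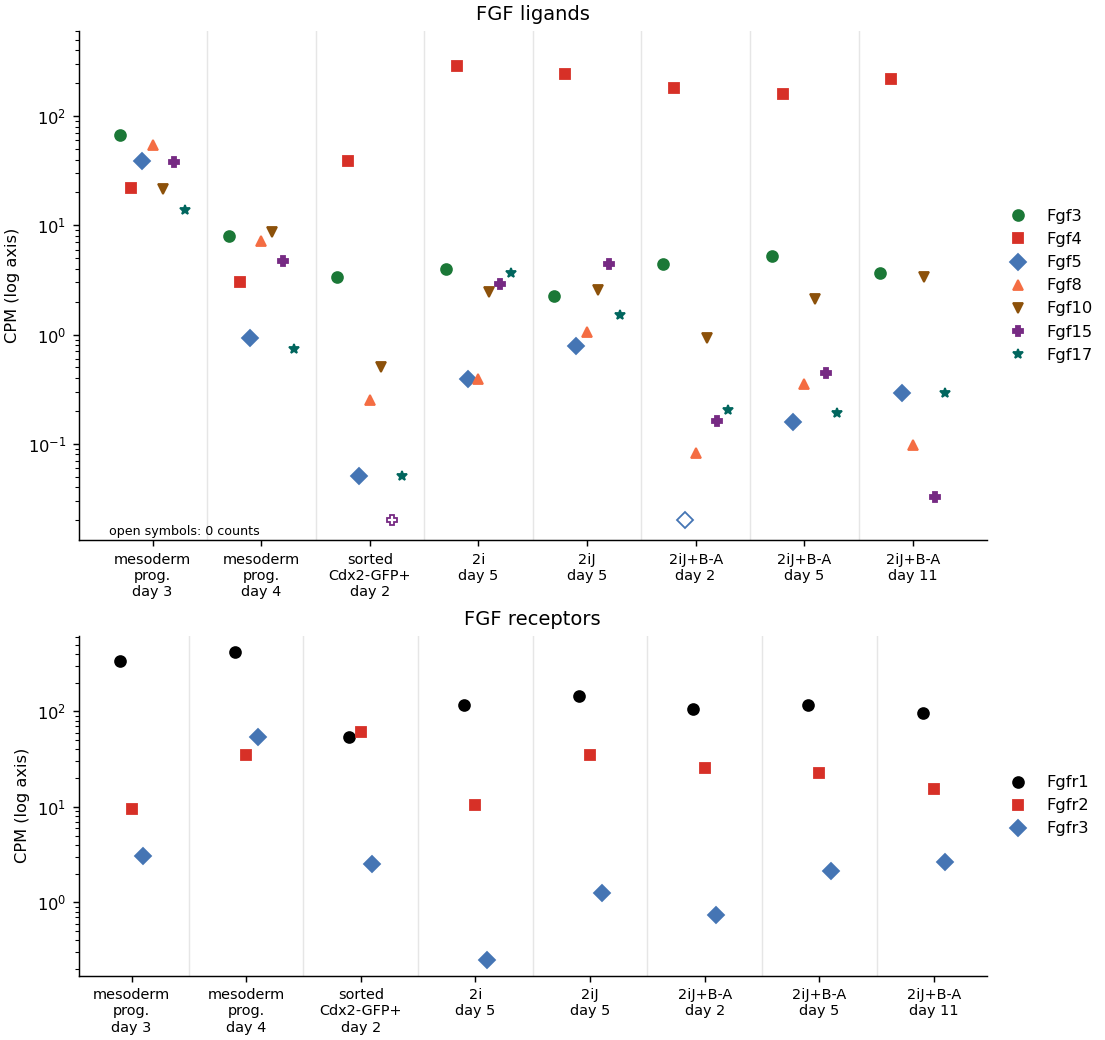
CPM of the 7 ligands (top) and 3 receptors (bottom) in each of the 8 libraries, on log axes, with 1 point per gene and library and open symbols for 0 counts. In CPM, which takes no account of gene length, Fgf4 was the highest ligand in the 6 mESC libraries, between 38.6 and 291.2 CPM, and the ligands lay closer together in the mesoderm progenitors, between 13.9 and 67.0 CPM on day 3.

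Fgf4 was the abundant ligand of the pluripotent cells. Its level was 291.2 CPM in 2i and 241.1 CPM in 2iJ, and in 2iJ+B-A it was 182.1 CPM on day 2, 159.1 CPM on day 5 and 219.9 CPM on day 11. It was 38.6 CPM in the sorted Cdx2-GFP+ cells, and 21.9 and 3.00 CPM in the mesoderm progenitors on days 3 and 4. All 5 unsorted mESC libraries lay above the sorted library, which lay above both mesoderm libraries. Against 2iJ+B-A (187.0 ± 30.7 CPM, SD, n = 3), the mesoderm progenitors (12.5 ± 13.4 CPM, SD, n = 2) had less Fgf4, with a log2 fold change of -3.90 (SE 0.81, edgeR adjusted p = 0.0177). It was -5.89 without mesoderm day 3 and -3.05 without day 4, and without 2iJ+B-A day 2 the edgeR adjusted p was 0.0507. Fgf4 was the only one of the 10 members to fall in this comparison, in which 15.5% of all genes tested fell and 31.0% were lower without overlap of the groups. Summed over 6 pluripotency markers, the unsorted mESC libraries (2846 to 4070 CPM) also lay above the sorted library (2010 CPM). The sorted library lay above the mesoderm progenitors (900.2 and 83.9 CPM). Sox2, Nanog, Zfp42 and Esrrb each kept this order, and Klf4 and Pou5f1 did not. Klf4 was highest in the sorted cells (209.2 CPM). Pou5f1 was at 956.8 CPM there, above 2iJ+B-A on days 2 and 5 (865.5 and 895.8 CPM). On mesoderm day 3 it was at 701.3 CPM. The part of these markers in the result was not tested.

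The other 6 ligands were higher in the mesoderm progenitors than in 2iJ+B-A, and for each of them both mesoderm libraries lay above all 3 libraries of 2iJ+B-A, as they did for 26.2% of all genes tested. Together with Fgfr1 and Fgfr3 they made 8 members that rose, and 11.5% of all genes tested rose. The log2 fold changes of the 7 ligands ranged from -3.90 to 7.39 with a median of 4.96, and the median over all genes tested was -0.03. Most of these calls depend on few libraries. Without the day 3 mesoderm library 5 members were called, and without the day 2, 5 or 11 library of 2iJ+B-A 3, 4 and 5 were called, in fits that keep a single library or a pair in one arm and take its spread from the other groups.

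Fgf8, a ligand of the primitive streak, had the largest change of the members. It stood at 54.3 and 7.17 CPM in the mesoderm progenitors on days 3 and 4. In 2iJ+B-A it was at 0.0815, 0.35 and 0.0977 CPM on days 2, 5 and 11, which is 2, 11 and 3 counts. It was at 0.252 CPM in the sorted cells, 0.391 CPM in 2i and 1.05 CPM in 2iJ. The groups did not overlap, and the log2 fold change between mesoderm progenitors and 2iJ+B-A was 7.39 (SE 1.07, edgeR adjusted p = 0.00638), and 5.36 without the day 3 library (edgeR adjusted p = 0.00611). Fgf8 and Fgfr1 were the 2 members called in all 13 alternative fits of this comparison. Fgf17, the ligand closest to Fgf8 in sequence, was at 13.9 and 0.743 CPM in the mesoderm progenitors, at 0.204, 0.191 and 0.293 CPM in 2iJ+B-A, and at 0.0505 CPM in the sorted cells. It reached 3.66 CPM in 2i and 1.52 CPM in 2iJ, which is more than in the mesoderm progenitors on day 4. Against 2iJ+B-A it was higher by 4.96 on the log2 scale (SE 1.15, edgeR adjusted p = 0.0247). Without the day 3 library the log2 fold change of Fgf17 was 1.75 (edgeR adjusted p = 0.0799).

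Fgf5, the ligand of the postimplantation epiblast, was at 38.8 CPM in the mesoderm progenitors on day 3 and at 0.937 CPM on day 4. It was at 0, 0.159 and 0.293 CPM in 2iJ+B-A, 0.0505 CPM in the sorted cells, 0.391 CPM in 2i and 0.778 CPM in 2iJ. One mesoderm library thus stood far above all others, and day 4 was only just above 2iJ. The log2 fold change against 2iJ+B-A was 6.95 (SE 1.66, edgeR adjusted p = 0.0263), and without the day 3 library it was 2.62 (edgeR adjusted p = 0.119).

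Fgf15, best known as a gut hormone that restrains bile acid synthesis and also made in the embryo, was at 38.3 and 4.75 CPM in the mesoderm progenitors. Its levels were 2.91 CPM in 2i, 4.44 CPM in 2iJ and 0.163, 0.445 and 0.0326 CPM in 2iJ+B-A, and no count was found in the sorted cells, which allows up to 0.151 CPM. Mesoderm progenitors on day 4 and 2iJ were close to each other, with 95% Wilson intervals that reach 5.33 CPM in 2iJ. Against 2iJ+B-A, Fgf15 was higher by 6.62 on the log2 scale (SE 1.18, edgeR adjusted p = 0.0114), and by 4.51 without mesoderm day 3 (edgeR adjusted p = 0.0168). When all 5 unsorted mESC libraries were taken as 1 group, the log2 fold change was 3.70 (edgeR adjusted p = 0.0701).

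Fgf3 and Fgf10 had counts in every library. Fgf3, which takes part in inner ear and tail development, was at 67.0 and 8.04 CPM in the mesoderm progenitors and between 2.26 and 5.25 CPM in the 6 mESC libraries. Its log2 fold change between mesoderm progenitors and 2iJ+B-A was 3.08 (SE 0.78, edgeR adjusted p = 0.0321), and it was 0.93 (edgeR adjusted p = 0.153) without the day 3 library. Fgf10, a ligand of limb and lung buds, was at 21.7 and 8.72 CPM in the mesoderm progenitors, 2.45 CPM in 2i, 2.57 CPM in 2iJ and 0.505 CPM in the sorted cells. In 2iJ+B-A it was at 0.938, 2.13 and 3.39 CPM on days 2, 5 and 11, with intervals of 0.625 to 1.41 CPM on day 2 and 2.79 to 4.10 CPM on day 11. Mesoderm progenitors were higher by 2.83 on the log2 scale (SE 0.64, edgeR adjusted p = 0.0233), and without day 3 by 2.09 (edgeR adjusted p = 0.0648). Fgf10 is overlapped in the annotation by Gm16263.

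**Figure D2:**
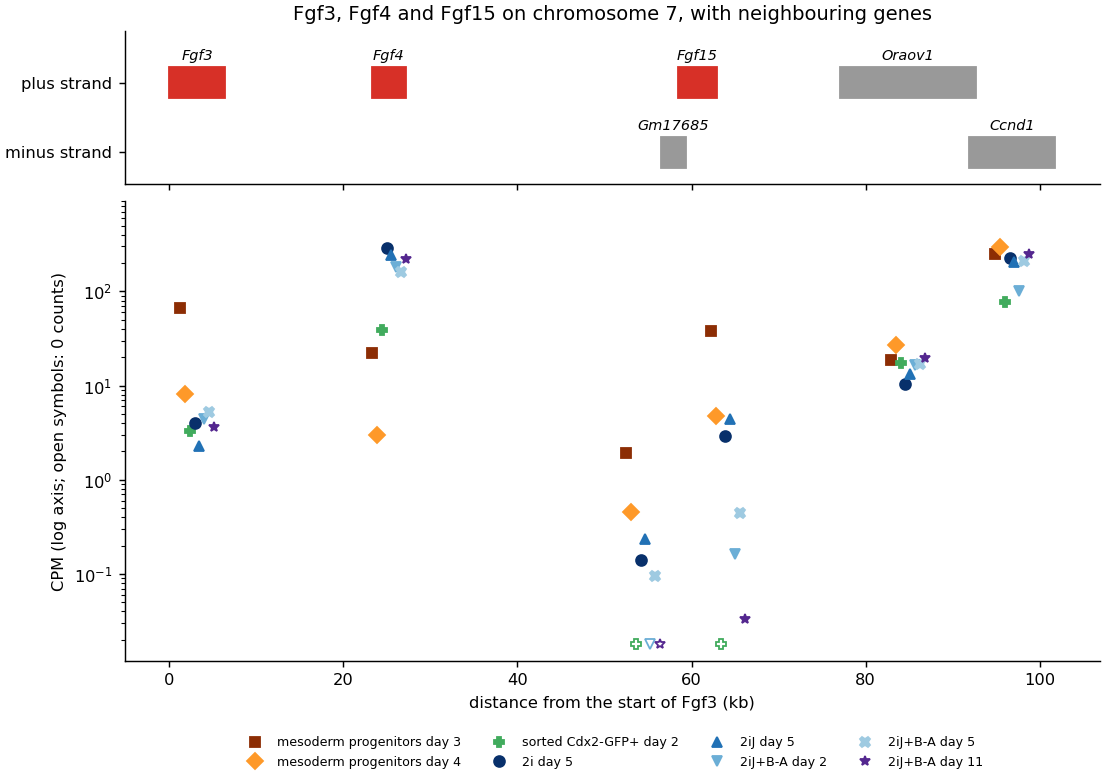
Top, the genes around Fgf3, Fgf4 and Fgf15 on chromosome 7 as distance in kb from the start of Fgf3, by strand. Bottom, CPM of each of these genes in the 8 libraries on a log axis, with points spread sideways around the gene for legibility (those of Gm17685 and Fgf15 moved apart) and open symbols for 0 counts. Fgf4 was lower in both mesoderm libraries than in the 5 unsorted mESC libraries, while Fgf3 and Fgf15 were higher on day 3 than in any other library.

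The gene cluster on chromosome 7 held members of both directions. Fgf4 lies between Fgf3 and Fgf15, and it fell in the mesoderm progenitors against 2iJ+B-A where its neighbours on both sides rose. The lincRNA Gm17685, which overlaps the start of Fgf15 on the opposite strand, was at 1.94 and 0.452 CPM in the mesoderm progenitors and at 0 to 0.234 CPM in the others. The next protein-coding genes beyond Fgf15 are Oraov1, at 10.4 to 27.0 CPM in all libraries, and Ccnd1, which encodes cyclin D1, at 77.9 to 294.95 CPM.

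Of the receptors, Fgfr1 was the highest in 7 of the 8 libraries, in CPM as well as per length. It was at 340.6 and 423.8 CPM in the mesoderm progenitors, 117.6 CPM in 2i, 146.6 CPM in 2iJ and 53.6 CPM in the sorted cells. In 2iJ+B-A it was at 106.6, 117.3 and 95.8 CPM, a mean of 106.6 CPM. The 8 libraries thus fell into mesoderm progenitors, unsorted mESCs and sorted cells in order of level, with no overlap. Against 2iJ+B-A, Fgfr1 was higher in the mesoderm progenitors by 1.86 on the log2 scale (SE 0.16, edgeR adjusted p = 0.00183), the smallest change and the smallest error among the 9 members called.

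Fgfr3 was low in the mESCs and in the mesoderm progenitors on day 3. It was at 0.249 CPM in 2i, 1.25 CPM in 2iJ, 0.734, 2.13 and 2.64 CPM in 2iJ+B-A, 2.52 CPM in the sorted cells and 3.08 CPM in the mesoderm progenitors on day 3. On day 4 it was at 54.3 CPM. This single library made the difference between mesoderm progenitors and 2iJ+B-A, whose log2 fold change was 3.99 (SE 1.13, edgeR adjusted p = 0.0436), and 0.80 (edgeR adjusted p = 0.477) without it.

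Fgfr2, the main receptor of trophoblast stem cells, went another way. It was highest in the sorted Cdx2-GFP+ cells, at 61.4 CPM, followed by 2iJ at 34.6 CPM and the mesoderm progenitors on day 4 at 34.6 CPM. In 2iJ+B-A it was at 25.7, 22.5 and 15.4 CPM on days 2, 5 and 11, in 2i at 10.4 CPM and in the mesoderm progenitors on day 3 at 9.60 CPM. The mesoderm libraries lay on either side of 2iJ+B-A, and the log2 fold change between these groups was 0.08 (SE 0.53, edgeR adjusted p = 0.927).

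**Figure D3:**
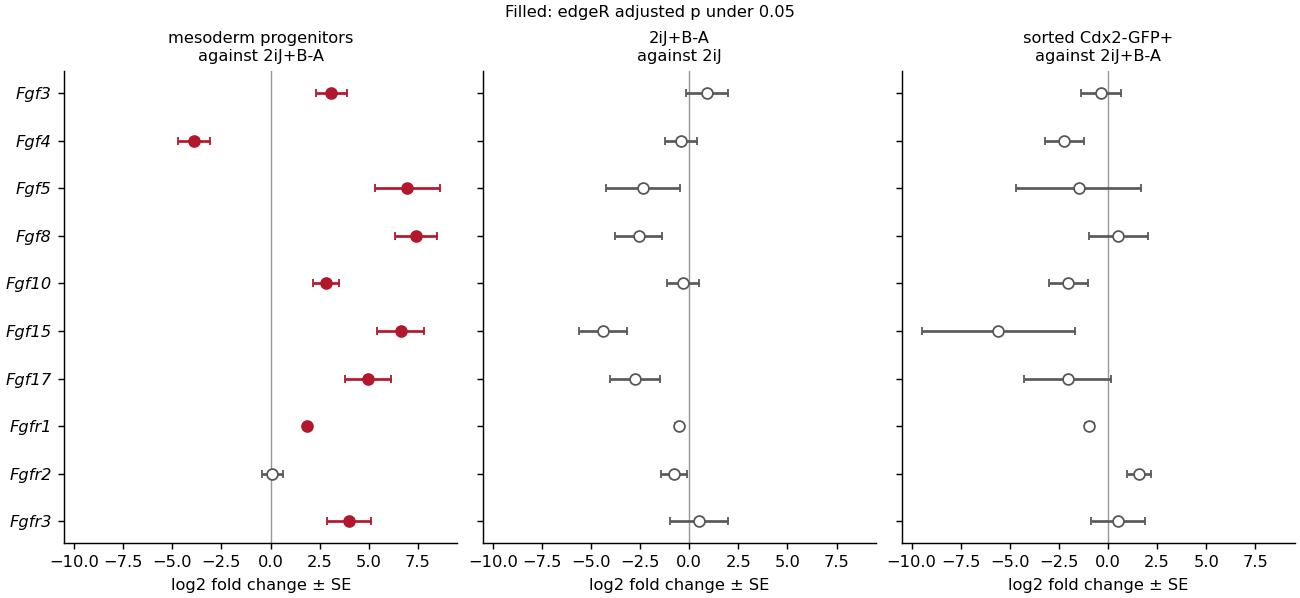
Log2 fold change with its standard error (bars) of the 10 members in the 3 comparisons fitted with edgeR, with filled points for an adjusted p under 0.05. Only the comparison of mesoderm progenitors with 2iJ+B-A has filled points, 8 to the right of 0 and Fgf4 to the left.

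The mesoderm progenitors on day 3 and day 4 were compared as 1 library each, with no replicate check, and a change of at least 2-fold was counted. All 7 ligands were lower on day 4, and 11.8% of genes were lower by that measure. Fgf5 was 41.4-fold lower, Fgf17 18.7-fold, Fgf3 8.33-fold, Fgf8 7.58-fold, Fgf4 7.30-fold and Fgf10 2.49-fold, and Fgf15 had a log2 difference of -2.99. Fgfr3 and Fgfr2 were higher on day 4, by 17.6-fold and 3.60-fold, where 9.03% of genes were higher. The log2 difference of Fgfr1 was 0.32 (95% interval 0.28 to 0.35, for counting error only). The 7 ligands were thus lower, and 2 of the 3 receptors higher, in the later library. Markers differed too, since brachyury (T) was at 547.3 CPM on day 3 and 6.30 CPM on day 4, Mesp1 at 181.3 and 6.36 CPM, and Kdr, a receptor of vascular and blood progenitors, at 67.8 and 305.4 CPM. Their part in these differences was not tested.

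2iJ+B-A was compared with 2iJ to ask what BMP4 and the ALK5 inhibitor added. In edgeR 0 of the 10 members and 0.0% of all genes tested were called, the lowest adjusted p was 0.244, and 1290 genes had an unadjusted p under 0.05. With DESeq2, 305 genes (1.8%) were called, among them 1 member, Fgf15. Fgf15 was at 4.44 CPM in 2iJ and 0.214 CPM on average in 2iJ+B-A, with no overlap, a log2 fold change of -4.40 (SE 1.23, edgeR adjusted p = 0.488) and a DESeq2 adjusted p of 0.0379. Fgf17 (log2 fold change -2.76), Fgf8 (-2.58) and Fgf5 (-2.35) were lower in all 3 libraries of 2iJ+B-A than in 2iJ without passing either test, at mean levels under 0.3 CPM in 2iJ+B-A. Fgf4 (-0.43), Fgfr1 (-0.52) and Fgfr2 (-0.77) were also lower in all 3 libraries and not called, while Fgf3 (0.91) was higher in all 3, at 3.65 to 5.25 CPM against 2.26 CPM, and not called. Over all genes tested, 23.8% were lower and 33.9% higher in all 3 libraries than in 2iJ. With 1 library of 2iJ, its spread was taken from the other groups. That library was from day 5, while 2iJ+B-A had days 2, 5 and 11, so time in culture is mixed into this comparison.

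Within 2iJ+B-A, Fgfr2 was lower on day 11 than on day 2, at 15.4 CPM (95% Wilson interval 14 to 16.8) against 25.7 CPM (23.8 to 27.8). Fgfr3 was higher, at 2.64 CPM (2.12 to 3.28) against 0.734 CPM (0.464 to 1.16). There was 1 library for each day, so these intervals cover counting error only. Markers of primitive endoderm, 5 in all, summed to 11, 33.1 and 137.2 CPM on days 2, 5 and 11, and their part in these differences was not tested.

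2iJ was compared with 2i, 1 library each, to follow the JAK inhibitor. By the 2-fold measure, 3 members were higher in 2iJ and 1 was lower, while 4.95% of genes were higher and 2.24% lower. Fgfr2 was at 10.4 CPM in 2i and 34.6 CPM in 2iJ, a log2 difference of 1.73 (95% interval 1.54 to 1.93). Fgfr3 was at 0.249 and 1.25 CPM, or 7 and 32 counts, and Fgf8 at 0.391 and 1.05 CPM, or 11 and 27 counts. Fgf17 was lower, at 3.66 CPM in 2i and 1.52 CPM in 2iJ. Fgf4 was at 291.2 and 241.1 CPM, a log2 difference of -0.27.

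The sorted Cdx2-GFP+ cells had the lowest Fgf4 and Fgfr1 and the highest Fgfr2 of the 6 mESC libraries. Against 2iJ+B-A at all 3 days, 0 members were called in edgeR, where 3.34% of all genes tested were higher and 2.08% were lower. The log2 fold changes were -2.23 for Fgf4 (SE 0.99, edgeR adjusted p = 0.207), -0.94 for Fgfr1 (SE 0.22, edgeR adjusted p = 0.0617) and 1.59 for Fgfr2 (SE 0.63, edgeR adjusted p = 0.169), and for each the sorted library lay outside the range of 2iJ+B-A, as it did for 33.5% of all genes above and for 41.7% below. In a fit of these groups alone all 3 passed, with edgeR adjusted p of 0.0118 for Fgf4, 0.0403 for Fgfr1 and 0.0325 for Fgfr2, where 6.66% of genes were higher and 5.3% lower. They also passed when either mesoderm library was left out, with edgeR adjusted p up to 0.0112, 0.0370 and 0.0324 in the same order. Leaving out any 1 of the 2iJ+B-A days instead, none of the 3 passed, with edgeR adjusted p up to 0.32 for Fgf4, 0.178 for Fgfr1 and 0.312 for Fgfr2. Fgfr1 passed with DESeq2 (adjusted p = 0.00526), which called 2697 genes, and in edgeR without a filter (adjusted p = 0.0470), which called 1390. The sort, the line and the library cannot be told apart, and the unmapped share and fibroblast markers given above belong to the same library.

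Against 2iJ+B-A on day 2 alone, the day of the sort, 3 members were at least 2-fold higher in the sorted cells and 3 lower, where 16.9% of genes were higher and 17.9% lower. Fgfr2 was higher by 1.26 on the log2 scale (95% interval 1.12 to 1.40), and Fgfr3 was at 2.52 CPM against 0.734 CPM. Fgf4 was 4.71-fold lower in the sorted cells (log2 difference -2.24). The other 3 members in these counts rest on few read pairs, with counting intervals that include no difference. Fgf8 had 5 counts against 2, Fgf15 had 0 against 4 and Fgf17 had 1 against 5, and with the limit of 3 counts in place of lower values Fgf15 and Fgf17 were 1.08-fold and 1.35-fold lower, short of 2-fold. Fgfr1 had a log2 difference of -0.99, and with unstranded counts it passed 2-fold, which adds it to the lower members. With a prior count of 0.5, Fgf5 (1 count against 0) is added to the higher members.

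**Figure D4:**
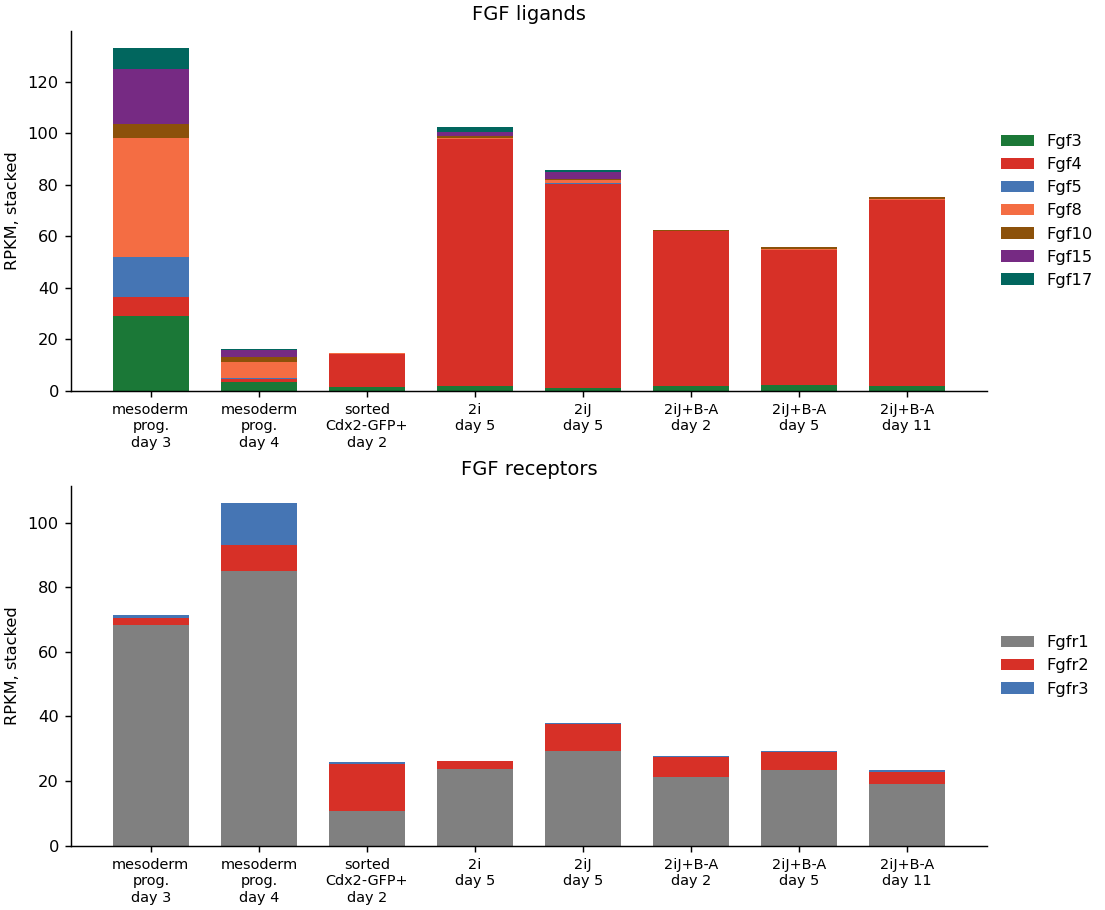
RPKM, which is CPM divided by the length of the longest coding transcript in kilobases, stacked over the 7 ligands (top) and the 3 receptors (bottom) in each library. Fgf4 makes 5.44% and 6.12% of the ligand level in the mesoderm progenitors and at least 87.4% in the mESC libraries, and Fgfr2 makes 56.2% of the receptor level in the sorted cells.

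Levels of different genes were compared per kilobase of the longest coding transcript (RPKM). Summed over the 7 ligands the level was 133.1 RPKM in the mesoderm progenitors on day 3, the highest of the 8 libraries, and 16.2 RPKM on day 4. It was 102.7 RPKM in 2i, 85.7 RPKM in 2iJ, 56.0 to 75.4 RPKM in 2iJ+B-A and 14.6 RPKM in the sorted cells. Fgf4 made 92.8% to 96.3% of it in the unsorted mESC libraries and 87.4% in the sorted cells. In the mesoderm progenitors on day 3, Fgf8 led the ligands with 46.5 RPKM, followed by Fgf3 with 29.1, Fgf15 with 21.2 and Fgf5 with 15.5 RPKM, and Fgf4 came sixth with 7.24 RPKM. On day 4 Fgf8 was again the highest ligand with 6.14 RPKM, below all 3 receptors, though with the union of exons as length it lay above Fgfr2 (5.31 against 4.43 RPKM).

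Per length, Fgfr1 was the most abundant of all 10 members in both mesoderm libraries, with 68.3 and 85.0 RPKM, and came after Fgf4 in the unsorted mESC libraries. It made 95.8% of the receptor level in the mesoderm progenitors on day 3 and 80.2% on day 4, where Fgfr3 made 12.1% and Fgfr2 7.72%. In 2iJ+B-A Fgfr2 made 15.5% to 22% of the receptor level, in 2iJ 21.6% and in 2i 9.44%. In the sorted cells Fgfr2 made 56.2% and Fgfr1 41.5%. With the union of all annotated exons as length, Fgfr2 made 52.9% in the sorted cells and remained the leading receptor there. The receptor level is the sum over Fgfr1, Fgfr2 and Fgfr3, and leaves out Fgfr4, which was not a member. In CPM, Fgfr4 was above Fgfr3 in every mESC library, at up to 8.56 CPM on day 11 of 2iJ+B-A. It was below Fgfr3 in both mesoderm libraries. Counts per gene do not separate the IIIb and IIIc splice forms of the receptors, which differ in the ligands they bind.

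Genes with a similar pattern over the 8 libraries were found by Pearson correlation of log2 CPM with 9281 protein-coding genes of at least 10 CPM on average. The libraries share conditions, and the values describe these libraries only. Fgf4 was most like Prdm14, a regulator of pluripotent and germ cells (r = 0.994), 1700019D03Rik (r = 0.993) and Tle4 (r = 0.992). Fgf8 was most like Wnt3, a ligand of the primitive streak, which was at 107.0 and 25 CPM in the mesoderm progenitors and at 0.684 to 5.64 CPM elsewhere (r = 0.994). Next for Fgf8 came Txnrd1 (r = 0.9905), at 242.1 to 657.6 CPM in the 8 libraries. The 3 nearest genes of Fgf5 were Sfxn1 (r = 0.979), Notch1 (r = 0.975) and Lef1 (r = 0.973). Fgf10 was nearest to Cachd1 (r = 0.987), Fgf3 to 1110067D22Rik (r = 0.981) and Fgf15 to Ncbp1 (r = 0.983). Fgf17 was nearest to Sltm (r = 0.987), at 127.1 to 211.1 CPM in the 8 libraries. The nearest genes thus include genes well expressed in all 8 libraries, and a shared programme was not tested. Fgfr1 was nearest to Dcakd (r = 0.993) and Gli3 (r = 0.992), and Fgfr3 to Unc45b (r = 0.980), a chaperone of muscle myosin at 60.8 CPM on day 4 and 0.497 to 5.30 CPM in the others. Fgfr2 had the weakest nearest gene of the 10 members, Apoe (r = 0.922), which was highest in the sorted cells at 657.1 CPM.

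**Figure D5:**
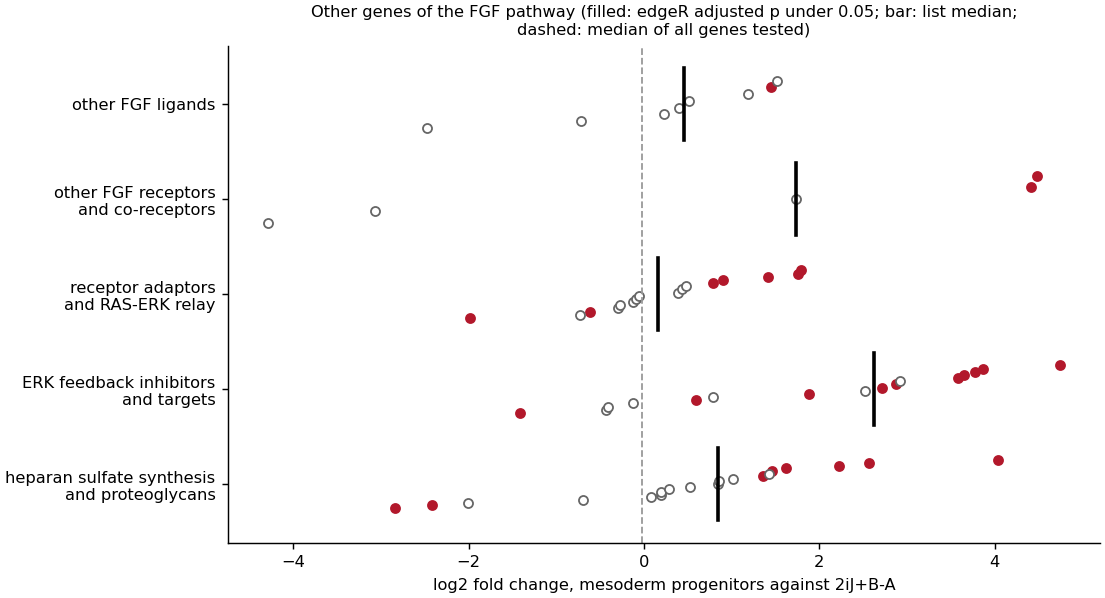
Log2 fold change between mesoderm progenitors and 2iJ+B-A for other genes of the FGF pathway, 1 point per gene tested in 5 lists, filled for an edgeR adjusted p under 0.05, with a black bar for the median of the list and a dashed line for the median of all genes tested (-0.03). The median was highest in the list of ERK feedback inhibitors and targets, at 2.62.

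The rest of the pathway was read from 5 lists in the comparison of mesoderm progenitors with 2iJ+B-A. In it 11.5% of all genes tested rose and 15.5% fell. Of 15 other FGF ligands, 8 had enough counts to be tested and 1 rose, Fgf13, which acts inside the cell (10.7 against 3.97 CPM, log2 fold change 1.45, edgeR adjusted p = 0.0347), and 0 to 3 of them were called over the alternatives. Of the other receptors and co-receptors, 5 of 6 were tested and 2 rose, the cell adhesion protein Cdh2 (log2 fold change 4.42, edgeR adjusted p = 0.00203) and Nrp1 (4.49, edgeR adjusted p = 0.0310). Nrp1 was at 25.9 CPM on day 3 and 575.7 CPM on day 4. Over the alternatives 1 to 5 genes of this list were called.

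Among the genes of the relay from receptor to ERK, 16 of 17 were tested, 5 rose and 2 fell, with a median log2 fold change of 0.17. The shares of all genes tested that rose and fell were 11.5% and 15.5%. The exchange factor Sos2 rose by 1.79 and Mapk3, which encodes ERK1, by 1.75, while the adaptors Gab1 (-1.98) and Grb2 (-0.62) fell, with edgeR adjusted p between 0.00183 and 0.0249 for these 4 genes. Without 2iJ+B-A day 5 or day 11, 4 genes of the relay were called in place of 7. The list of genes that ERK signalling induces, most of them inhibitors of the pathway, had the highest median of the 5 lists. Of its 16 genes 9 rose and 1 fell, with a median of 2.62. The phosphatases Dusp4 (163.5 against 6.15 CPM, log2 fold change 4.74, edgeR adjusted p = 0.00179) and Dusp6 (94.7 against 6.52 CPM, 3.86, edgeR adjusted p = 0.0113) changed most. Within the mesoderm progenitors the list was mixed between the earlier and the later library. Dusp6 was lower in the later one (30.2 against 159.2 CPM), and Dusp4 differed less (150.8 against 176.3 CPM). Il17rd was higher there (174.8 against 121.6 CPM), as were Etv1, Spry1 and Spred3, and the remaining genes of the list were lower. The part of the ligands in these differences was not tested. Etv5, also a target of ERK, was the gene that fell, from 375.6 CPM in 2iJ+B-A to 139.7 CPM (log2 fold change -1.42, edgeR adjusted p = 0.0291). The MEK inhibitor present in the mESC media and not listed for the mesoderm progenitors goes with this comparison and cannot be told apart from it.

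In the list of heparan sulfate synthesis and proteoglycans, which also holds sulfatases, all 19 genes were tested. Of these, 6 rose and 2 fell, with a median of 0.84. Of all genes tested, 11.5% rose and 15.5% fell. The proteoglycan Gpc3 rose by 4.03 and the sulfatase Sulf1 by 2.56 on the log2 scale. The sulfotransferase Hs6st1 fell by 2.84 and the proteoglycan Sdc4 fell by 2.41, with edgeR adjusted p between 0.00104 and 0.0119 for these 4 genes. Between 2iJ+B-A and 2iJ, 0 genes of the 5 lists and 0.0% of all genes tested were called in edgeR. Between the sorted cells and 2iJ+B-A 3 were called, 2 of the 16 ERK-induced genes and 1 of the 19 heparan sulfate genes. Of all genes tested there, 3.34% were higher and 2.08% lower, and the 3 are named here after their values were seen. They were Spry1 (17.3 against 3.15 CPM, edgeR adjusted p = 0.0239), Dusp4 (52.1 against 6.15 CPM, edgeR adjusted p = 0.0222) and Sdc4 (815.8 against 165.2 CPM, edgeR adjusted p = 0.00615), all higher in the sorted cells.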

How the data were processed

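Pellets had been frozen at each time point and extracted together, and strand-specific poly-A libraries were sequenced as 126-base read pairs. Per the labels and methods, the authors demultiplexed with bcl2fastq 2.17, trimmed with cutadapt and aligned to NCBIM37 with STAR 2.4.2a, and they deposited raw counts of read pairs per gene for both strands. The batch adjustment described in the study was not in these counts.

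Reverse-strand counts, as the library chemistry requires, were used here. Wrong-strand counts made 5.03% to 6.47%. The days of a group were its libraries, so p-values measure the spread between libraries, including change over days, and 2i, 2iJ and the sorted cells had 1 library each. All 8 libraries in 5 groups were fitted in edgeR 4.0.16 (R 4.3.3) by the quasi-likelihood test with TMM scaling, 3 residual degrees of freedom and Benjamini-Hochberg adjustment at 0.05 over the 16961 genes. The common biological coefficient of variation was 0.363. The fit was also run on simulated counts, as a check that it returns the fold changes put in. The simulated counts had less spread than the data, so they do not measure power or false calls here. Pairs of single libraries were compared as log2 CPM differences with a prior count of 2. Wilson 95% intervals and the limit of 3 counts cover counting error only. DESeq2 1.42.0, other scalings, no filter, unstranded counts, fewer groups and leaving out 1 library in turn (the mesoderm, 2iJ+B-A and sorted libraries) were tried as alternatives, and after the data were seen the union of exons as gene length. Promoters were those of the RefSeq table, and proteins were aligned with Biopython 1.88.

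The members, the pathway lists and the marker lists were chosen with earlier results of these data known. The genes named from a pathway list were the 2 called genes that changed most in each direction, if their higher group averaged 5 CPM or more, and likeness of pattern was limited to 3 genes a member. Of the markers fixed, Pax6 and Zic1 for neuroectoderm reached 2.39 CPM at most. Sox1 and Hras were not in the annotation.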

Additional observations from a re-analysis of the deposited data

Results flagged for a closer look

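Counts on the strand opposite to the gene were looked at for each member and library, since no comparison used them. Of 79 pairs of member and library with a count, 2 held a share on that strand whose 95% Wilson interval lay above the share of the whole library (5.03% to 6.47%), with at least 3 such counts. Fgf10 had 37.5% on the opposite strand in the sorted Cdx2-GFP+ cells (6 of these counts beside 10 on its own strand, interval 18.5% to 61.4%). Fgf17 had 22% in 2iJ (11 beside 39, interval 12.8% to 35.2%). These intervals cover counting error only, and the cause was not tested.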

How the results depend on the processing

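For mesoderm progenitors against 2iJ+B-A, 9 members were called with either other scaling, without a filter on low counts, with unstranded counts, with DESeq2, without the sorted library and with only the groups compared, and 7 with all 5 unsorted mESC libraries as 1 group. With each mesoderm and 2iJ+B-A library left out in turn, 3 to 8 members and 2019 to 4538 genes were called, against 9 and 4584. Fgfr2 changed sign here, with log2 fold changes from -1.10 (without mesoderm progenitors day 4) to 0.78 (without day 3) over these fits, and -0.07 without 2iJ+B-A day 11. For 2iJ+B-A against 2iJ, DESeq2 called 1 member and 305 genes, and the mean of 2i and 2iJ as reference gave 3 genes and a log2 fold change of 0.0885 for Fgfr2. The log2 fold change of Fgf10 ran from -0.82 to 0.0293 with each of these libraries left out in turn (0.0293 without 2iJ+B-A day 2). For the sorted cells against 2iJ+B-A, 1 member and 1390 genes were called without a filter, 1 and 2697 with DESeq2, and 3 and 1911 with only the groups compared, against 0 and 919. With each mesoderm and 2iJ+B-A library left out, 0 to 3 members and 37 to 2052 genes were called. Of 364 refits of single members in these 3 comparisons, 326 kept direction and side of the threshold. They were 106 of 130 for mesoderm progenitors against 2iJ+B-A, 125 of 128 for 2iJ+B-A against 2iJ and 95 of 106 for the sorted cells. The main fits of the latter 2 comparisons called 0 members, so staying uncalled says little there. Of 60 recomputed differences between single libraries, 2 crossed the 2-fold limit, Fgf5 and Fgfr1 in the sorted cells against 2iJ+B-A day 2. Causes were not tested. No paired analysis was possible because the labels give no replicate numbers.

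Each day and most conditions are single libraries, so differences between days, 2i and 2iJ, and the sorted cells rest on counting error or on spread borrowed from other groups. Members at 0 to 14 counts have folds that are set by few read pairs. They were Fgf5, Fgf8, Fgf15 and Fgf17 in 2iJ+B-A or the sorted cells, and Fgf10 in the sorted cells. In 2i they were Fgf5, Fgf8 and Fgfr3.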
